A study of Sus scrofa with 4 samples.

Results

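Fatty acid beta-oxidation and electron transfer enzymes were followed in porcine expanded blastocysts grown with or without ethanol. The group consisted of 10 genes (CPT1A, ACADVL, ACADL, ACADM, ACADS, HADHA, HADHB, ACAA2, ETFA and ETFB), represented by every probe that carries one of these symbols in the array's annotation. They are 10 of the 7344 named genes with a probe kept as above background. Their probes were 24 of the 43794 on the array, and 23 of the 24 were kept. The genes were proposed with ethanol over control ratios from these same arrays already known. Those ratios are therefore given as a description, with a standard error (SE) and no test.

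The ethanol pools were embryos kept from the zygote stage for 7 days in the pig embryo medium PZM3, to which 0.2% ethanol had been added. The control pools were expanded blastocysts with no compound added. The labels state that embryos developed in sealed glass vials, and that entry is the same for every array. The sources used here do not give the breed or the origin of the oocytes. Each of 4 arrays was hybridised with RNA from 1 ethanol pool and 1 control pool of 10 embryos each, amplified in a pair of T7 transcription rounds. Ethanol RNA carried the red dye Cy5 on arrays 1 and 3 and the green dye Cy3 on arrays 2 and 4. A pool is a mixture of whole embryos, so fewer cells of a type and less RNA per cell cannot be told apart. Whether pools came from separate collections was not stated, so the spread between pools may be partly technical.

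Mitochondrial beta-oxidation shortens an acyl-CoA chain by cycles of dehydrogenation, hydration, a further dehydrogenation and thiolysis. Long chains enter the mitochondrion through the carnitine shuttle, whose entry enzyme is carnitine palmitoyltransferase. The acyl-CoA dehydrogenases take the opening step, each on its own range of chain lengths, and pass electrons to the electron transfer flavoprotein and on to the respiratory chain. Pig oocytes and embryos are known for their large stores of lipid.

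Across the pathway the largest fitted values went in opposite directions at neighbouring chain lengths. ACADL, the long-chain acyl-CoA dehydrogenase, had a log2 ratio of 0.67 (SE 0.12), which is 1.60-fold higher with ethanol. ACADVL, the very-long-chain enzyme, had a log2 ratio of -0.57 (SE 0.11), which is 1.48-fold lower with ethanol. ACAA2, the thiolase of the last step, had 0.30 (SE 0.08), and ETFB, the beta subunit of the electron transfer flavoprotein, had -0.30 (SE 0.09). ACADM, the medium-chain enzyme, had 0.25 (SE 0.12). The other 5 genes lay within 0.15 of 0. A size of at least 0.25 was reached by 4 of the 10 genes (ACADL, ACADVL, ACAA2 and ETFB), with ACADM just under it, and by 8.12% of all named genes on their brightest probe. Each value is the limma estimate from 4 arrays for the gene's brightest probe, with a coefficient for the dye.

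Of the 10 genes, 7 lay above 0 and 3 below, with a median log2 ratio of 0.04. Over all 25899 kept probes 48.3% lay above 0, and the median was -0.004. No member passed an adjusted p under 0.05 in limma, nor did any probe on the array (0 of 25899, 0%). The smallest adjusted p over all probes was 0.514. Without adjustment, 1882 probes (7.27%) had a p under 0.05, of which 3.54% of all kept probes were higher and 3.73% lower with ethanol. A separate-channel limma analysis likewise passed 0 probes and gave 2608 at an unadjusted p under 0.05. A value as far from 0 as that of ACADL was reached by 0.143% of kept probes, of ACADVL by 0.313%, of ETFB by 3.59%, of ACAA2 by 3.59% and of ACADM by 6.35%. Since the same ratios were used in proposing the genes, these shares only place the values.

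**Figure D1:**
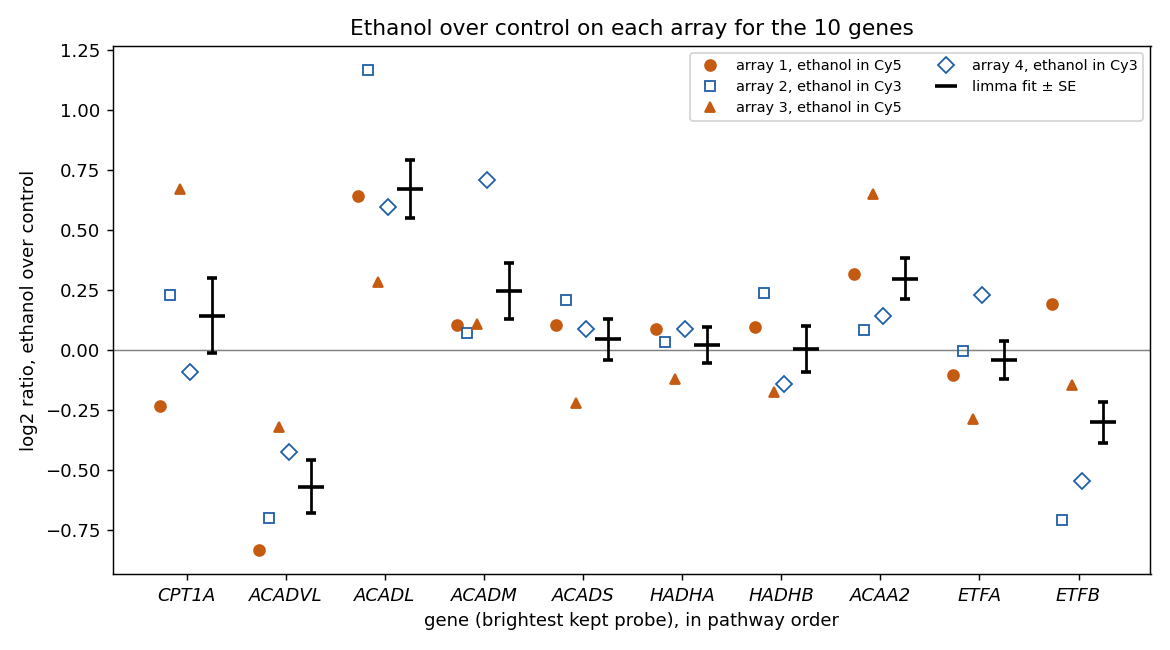
Log2 ratio of ethanol over control (vertical axis) on each of the 4 arrays for the brightest probe of each gene, in pathway order. Orange filled symbols are arrays 1 and 3 (ethanol in Cy5), blue open symbols arrays 2 and 4 (ethanol in Cy3), and black bars are the limma estimate ± SE. ACADL, ACADM and ACAA2 lie above 0 on all 4 arrays and ACADVL below 0 on all 4.

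CPT1A encodes the carnitine palmitoyltransferase that admits long acyl chains to the mitochondrion. Its brightest probe had log2 ratios of -0.23, 0.23, 0.67 and -0.09 on arrays 1 to 4, with a fitted value of 0.15 (SE 0.16). The arrays thus differed in sign, and the fitted value was -0.08 without array 3 and 0.37 without array 1. The second probe had 0.05 (SE 0.08), and the third was not above background in any of the 8 channels and was left out of the main fit.

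ACADVL was represented by a single probe, EMPV1_33442. In median pixel intensity the ethanol pools on arrays 1 to 4 read 202, 524, 373 and 795, and the control pools 843, 441, 933 and 427. These readings contain the dye difference, since Cy3 was the brighter channel, so pools were also placed on a common scale. The pool level is the log2 intensity minus the median of all kept probes in the same channel of the same array. On that scale the ACADVL level was 0.93, 1.23, 1.99 and 1.56 in the ethanol pools and 1.66, 1.93, 2.08 and 2.11 in the control pools. The ethanol pool was the lower of the pair on every array, while the ranges of the groups overlapped.

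After loess normalisation the log2 ratios of ACADVL were -0.83, -0.70, -0.32 and -0.42 on arrays 1 to 4. Their means were -0.58 with ethanol in Cy5 and -0.56 with ethanol in Cy3. The fitted dye coefficient was -0.01, against a median size of 0.13 over all kept probes. Arrays 1 and 3, which share the dye orientation, gave the largest and the smallest difference. With 1 array left out, the fitted value stayed between -0.70 and -0.44.

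ACADL was read by 3 probes, and all of them were higher with ethanol. The brightest, EMPV1_15256, had pool levels of 2.85, 3.60, 3.50 and 3.23 with ethanol and 2.05, 2.56, 2.90 and 2.84 without. The second, EMPV1_26110, had levels of 0.14, 1.21, 0.71 and 0.50 with ethanol against 0.41, 0.25 and 0.19 on arrays 2 to 4 and -0.17 on array 1 without. The ethanol pool was above its partner in every pair for both probes, and the overlap between the groups came from the ethanol pool of array 1, which lay below 1 or more control pools of other arrays.

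The third ACADL probe, EMPV1_17856, had levels of -0.27, 0.25, 0.03 and -0.01 with ethanol and -0.84, -0.37, -0.47 and -0.48 without. It was dim, being above background in all 4 ethanol pools but only in the control pool of array 3. It was thus kept through its ethanol pools alone, so that its levels do not overlap between the groups (as for 0.525% of kept probes) is a description and supports nothing. Its log2 ratios were 0.64, 0.63, 0.53 and 0.48 on arrays 1 to 4, of which those on arrays 1, 2 and 4 are against a control reading not above background.

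The fitted log2 ratios of the 3 ACADL probes were 0.67 (SE 0.12), 0.48 (SE 0.09) and 0.57 (SE 0.07), from brightest to dimmest. The ratios of the brighter pair of probes, both above background in every pool, were above 0 on every array. The brightest probe ranged from 0.29 on array 3 to 1.17 on array 2. The size for the dimmest probe depended on the processing of dim spots, with 1.05 at a normexp offset of 0 and 0.36 from mean pixel intensities. The 3 probes read the same pools and are not independent replicates.

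**Figure D2:**
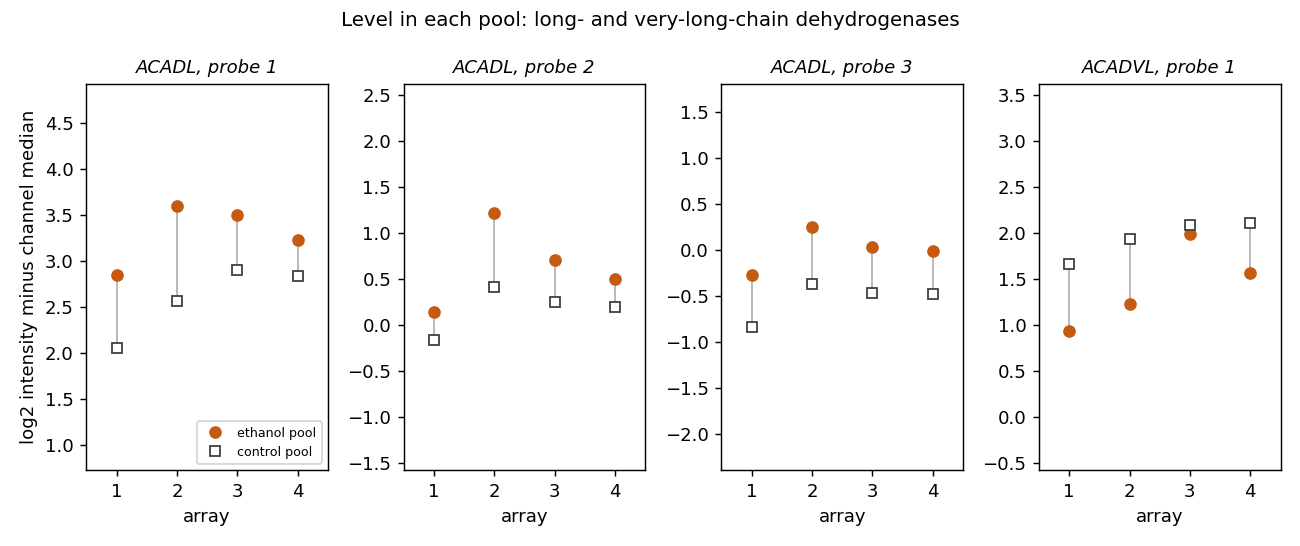
Level of each pool (log2 intensity minus the median of the kept probes in that channel) on arrays 1 to 4 for the 3 ACADL probes and the ACADVL probe. Orange circles are ethanol pools, open squares control pools, grey lines join the pair on an array, and every panel spans the same number of log2 units with its own offset. The ethanol pool lies above its partner in all ACADL pairs and below it in all ACADVL pairs.

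ACADM was read by a single probe. Its log2 ratios were 0.10, 0.07 and 0.11 on arrays 1 to 3 and 0.71 on array 4, so 1 pair of pools carries most of the fitted 0.25 (SE 0.12). On the pool-level scale the ethanol pool of array 2 was below its partner, at 2.76 against 2.79, so the sign on that array depends on the scaling. The fitted value was 0.09 without array 4 and 0.41 without array 2.

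ACADS, the short-chain enzyme, had 3 kept probes close to 0. From brightest to dimmest, the fitted log2 ratios were 0.05 (SE 0.08), -0.01 (SE 0.07) and -0.05 (SE 0.07). The dimmest illustrates the dye: its ratios were -0.35 and -0.44 on arrays 1 and 3 but 0.28 and 0.29 on arrays 2 and 4, where the dyes were exchanged, and its dye coefficient was -0.34. Across the 4 chain-length classes the fitted values thus ran -0.57, 0.67, 0.25 and 0.05 from very long to short chains.

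HADHA and HADHB encode the alpha and beta subunits of the mitochondrial trifunctional protein, which carries out hydration, the later dehydrogenation and thiolysis of long chains. HADHA had a fitted log2 ratio of 0.02 (SE 0.07) and single-array ratios from -0.12 to 0.09. HADHB had 0.01 (SE 0.10) on its brighter probe and 0.07 (SE 0.09) on the other. Both subunits lay near 0 in sizes well below those of ACADL and ACADVL, which act before them.

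ACAA2 encodes the mitochondrial 3-ketoacyl-CoA thiolase that cleaves off acetyl-CoA. Its single probe had log2 ratios of 0.32, 0.08, 0.65 and 0.14 on arrays 1 to 4. All were above 0, with the larger values on arrays 1 and 3, and the dye coefficient was 0.19. In pool levels the ethanol pools had 1.45, 2.27, 2.24 and 1.96 and the control pools 1.05, 2.24, 1.39 and 1.96. Pairs on arrays 2 and 4 were thus nearly level on that scale, and the groups overlapped.

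**Figure D3:**
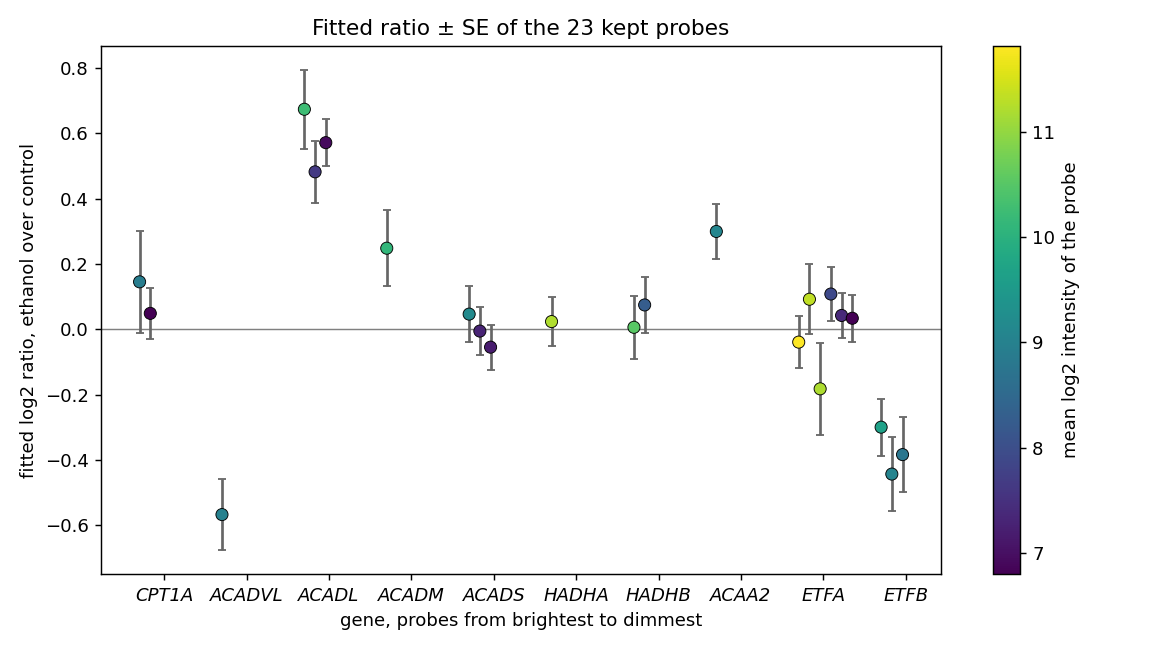
Fitted log2 ratio of ethanol over control ± SE (vertical axis) for the 23 kept probes, grouped by gene in pathway order and set from brightest to dimmest within a gene. Colour gives the probe's mean log2 intensity. The 3 ACADL probes lie between 0.48 and 0.67, the 3 ETFB probes between -0.44 and -0.30, and the 6 ETFA probes between -0.18 and 0.11.

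ETFA and ETFB encode the subunits of the electron transfer flavoprotein, the heterodimer that accepts electrons from all the acyl-CoA dehydrogenases named here. ETFB had 3 kept probes, with fitted log2 ratios of -0.30 (SE 0.09), -0.44 (SE 0.11) and -0.38 (SE 0.12) from brightest to dimmest. The brightest had ratios of -0.14, -0.71 and -0.55 on arrays 3, 2 and 4 and 0.20 on array 1. The middle probe had -0.03, -0.86, -0.45 and -0.43 on arrays 1 to 4, so it was the only ETFB probe below 0 on every array. In pool levels its ethanol pool on array 1 was above its partner, at 2.19 against 2.07. The sign on that array thus depends on the scaling. For all 3 probes the mean ratio of arrays 2 and 4 was further below 0 (-0.63, -0.65 and -0.55) than that of arrays 1 and 3 (0.03, -0.24 and -0.22), which share the other dye orientation.

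The 6 ETFA probes had fitted log2 ratios from -0.18 to 0.11, of which 4 lay above 0 and 2 below. The brightest had -0.04 (SE 0.08), with -0.10, -0.00, -0.29 and 0.23 on arrays 1 to 4. The subunits of the dimer therefore stood at different values, -0.04 and -0.30 on their brightest probes. That difference was not tested.

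Agreement between probes differed among the genes. Of the 6 genes with more than 1 kept probe, 4 had all probes on one side of 0. The matching share over all named genes was not computed, so this count is only a description. Among the 4 members with 3 or more kept probes (ACADL, ACADS, ETFA and ETFB), ACADL and ETFB had all probes of one sign, as did 39.1% of all such named genes, with the dimmest ACADL probe limited as above.  Ratios of single arrays were of one sign on all 4 arrays for 3 genes in the higher direction and 1 in the lower, on their brightest probes. Over all kept probes, a different unit from genes on their brightest probe, these patterns were met by 4.35% and 4.82%. In pool levels ACADM does not keep that pattern, as given above.

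Apart from the treatment ratio, the level of both pools on an array was compared with the other arrays. That level comes from the same readings as the ratio, so the measures are not independent. For ETFB, all 3 probes were lowest on array 4 when both channels were averaged, by 1.91-, 2.02- and 1.95-fold against the mean of arrays 1 to 3. Levels of the brightest ETFB probe were 2.76, 1.98, 2.93 and 1.34 in the ethanol pools and 2.39, 2.75, 2.78 and 2.0 in the control pools. A drop as large as that of the least affected ETFB probe was seen in 2.51% of kept probes. Without array 4 the fitted ethanol over control ratio of the brightest ETFB probe was -0.34.

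The third ETFA probe, EMPV1_11843, differed far more between arrays than between treatments. Its median pixel intensity was 3540, 3942, 2325 and 802 in the ethanol pools and 5368, 4255, 4611 and 369 in the control pools. On array 4 both pools were low, 7.43-fold below the mean of the other arrays, and 9 kept probes (0.0348%) fell as far. The brightest ETFA probe did not share this: its levels were 4.42, 4.26, 4.64 and 4.69 with ethanol and 4.25, 4.52, 4.50 and 4.80 without. The accession given for EMPV1_11843 had no match in the RefSeq table used for names, nor did that of 2 other ETFA probes, so the name rests on the array's annotation.

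On array 1 some other member probes were low. With both channels averaged, 14 of 23 member probes, 3 of them for ETFA, were lowest on array 1, against 27.8% of all kept probes. The brightest CPT1A probe was 2.08-fold lower there than on the mean of arrays 2 to 4, the ACAA2 probe 1.69-fold, the brightest ACADL probe 1.57-fold and the ACADVL probe 1.43-fold. Shares of kept probes at least as low were 0.0386%, 0.181%, 0.375% and 1.16%. Other probes moved little: the second CPT1A probe was 1.05-fold lower (33.1% of kept probes at least as low) and the ACADM probe 1.13-fold (16.0%). The dimmer pair of ACADS probes was lowest on array 3, and the second HADHB probe was lowest on array 4 and 0.03 higher on array 1 on the log2 scale. Levels of CPT1A were 0.75 in the ethanol pool and 0.90 in the control pool of array 1, and from 1.35 to 2.25 in the other 6 pools.

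HADHA, HADHB and ETFA showed smaller shifts on array 1, of 1.20-, 1.09- and 1.17-fold on their brightest probes. ETFB was 0.28 to 0.54 higher there on the log2 scale. These between-array comparisons were made after the values had been seen. Array, hybridisation and pool cannot be told apart, because each array carried its own pair of pools.

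**Figure D4:**
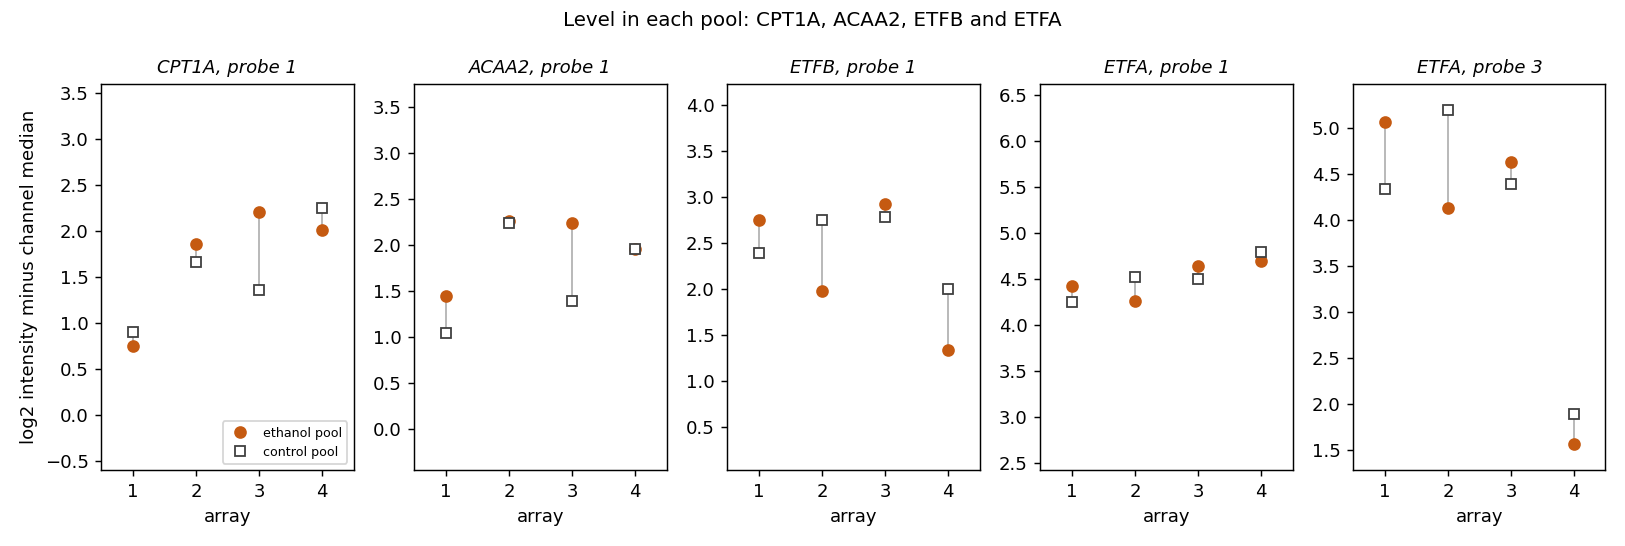
Level of each pool (log2 intensity minus the median of the kept probes in that channel) on arrays 1 to 4 for the brightest probes of CPT1A, ACAA2, ETFB and ETFA and the third ETFA probe. Orange circles are ethanol pools and open squares control pools, and every panel spans the same number of log2 units with its own offset. Both CPT1A pools are lowest on array 1, and both pools of the third ETFA probe are near 1.57 and 1.90 on array 4 against 4.14 to 5.20 on the others.

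The surrounding fatty acid genes were compared as 8 lists, outside the 10, with 78 measured genes in all and ETFDH on 2 of the lists. No gene of these lists passed an adjusted p under 0.05 in limma. At an unadjusted p under 0.05, 6 were higher and 6 lower with ethanol (15.4%), against 9.01% of all 7344 named genes on their brightest probe. Because the lists were chosen with earlier results of these data known, these shares are a description and test nothing. Their largest value was 0.43 in size, and 39 lay on each side of 0. Values below are fitted log2 ratios for the genes of smallest p in each list.

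In the rest of mitochondrial beta-oxidation, 9 of 12 measured genes lay above 0, with a median of 0.02 and 1 gene higher at an unadjusted p under 0.05. That gene was SLC25A20, the carnitine-acylcarnitine carrier, at 0.24 (SE 0.09), with ratios of 0.45 and 0.89 on arrays 1 and 3 but -0.19 and -0.20 on arrays 2 and 4. ECHS1, the short-chain enoyl-CoA hydratase, had -0.19 (SE 0.08), and HSD17B10, a mitochondrial short-chain dehydrogenase, had -0.17 (SE 0.09). ETFDH, which passes electrons from the flavoprotein to ubiquinone, had 0.13 (SE 0.09). Without array 3 the values of SLC25A20, ECHS1 and HSD17B10 were 0.12, -0.11 and -0.09, and without array 4 that of ETFDH was 0.05. CPT2, the inner-membrane partner of CPT1A, had 0.08.

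The peroxisomal list had 3 of 10 measured genes above 0 and a median of -0.08. ACOX3, an acyl-CoA oxidase, had -0.37 (SE 0.09), and SCP2, whose product has thiolase and sterol carrier forms, had 0.32 (SE 0.09). HACL1, a lyase of alpha-oxidation, had 0.19 and ACOX2, the branched-chain oxidase, -0.13. HACL1 stood at 0.08 without array 2 and ACOX2 at 0.02 without array 4. The median was -0.03 without array 3 and -0.01 without array 4.

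Flavin supply and electron transfer had 9 measured genes and a median of 0.00, with 3 lower at an unadjusted p under 0.05. FLAD1, which makes flavin adenine dinucleotide, had -0.43 (SE 0.09) on its brightest probe, while its 3 probes spanned -0.43 to 0.15 and averaged -0.07. COQ7, an enzyme of ubiquinone synthesis, had -0.30 (SE 0.07) and was below 0 on all 4 arrays. SLC25A32, a mitochondrial carrier of folate and flavin, had -0.33 (SE 0.10) on its brightest probe, while its 3 probes spanned -0.33 to -0.02 and averaged -0.16. That brightest probe had ratios of -1.08 and -0.63 on arrays 1 and 3 against 0.06 and 0.35 on arrays 2 and 4, a split by dye orientation. The list's median was -0.08 without array 3 and -0.10 without array 4.

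Among 12 genes of fatty acid uptake, binding and activation, 4 lay above 0. The transporter gene SLC27A4 had -0.27 (SE 0.10) on the brightest of 4 probes that ran from -0.27 to 0.19. The fatty acid binding protein genes FABP3 and FABP5 had 0.22 (SE 0.08) and 0.28 (SE 0.13), and ACBD5, a peroxisomal acyl-CoA binding protein, -0.17 (SE 0.09). FABP5 stood at 0.12 without array 1, FABP3 at 0.13 without array 4 and ACBD5 at -0.08 without array 2. Of 10 genes of lipid droplets and lipolysis, 5 lay above 0 and 5 below. The lipases LIPE and PNPLA2 had -0.34 (SE 0.09) and -0.19 (SE 0.09), while the lysosomal lipase LIPA and the lipase activator ABHD5 had 0.18 each (SE 0.12 for both). LIPA stood at 0.04 without array 2, ABHD5 at 0.04 without array 1 and PNPLA2 at -0.10 without array 3.

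Fatty acid synthesis had 5 of 8 measured genes above 0, with a median of 0.07. FASN, the fatty acid synthase, had 0.25 (SE 0.08), and the desaturase FADS2 had 0.24 (SE 0.09). ACLY, which supplies cytosolic acetyl-CoA, had 0.23 (SE 0.11) and the desaturase SCD 0.06. ACLY stood at 0.09 without array 1, FADS2 at 0.15 without array 4 and SCD at -0.01 without array 3. The 15 regulators of fatty acid oxidation had a median of 0.001. The coactivator NCOA1 had 0.23 (SE 0.07), and the nuclear receptors PPARD, PPARG and ESRRA had -0.16, -0.09 and -0.09. From mean pixel intensities these receptors had -0.08, -0.04 and -0.02. PPARD split by dye orientation, with -0.53 and -0.58 on arrays 1 and 3 against 0.38 and 0.11 on arrays 2 and 4. PPARG and ESRRA were dim, each above background in only 2 or 3 pools of a treatment. PPARA, the receptor known for control of these enzymes in liver, had 0.04. The 3 measured genes of ketone body synthesis and use (BDH2, OXCT1 and BDH1) lay between -0.01 and 0.10.

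**Figure D5:**
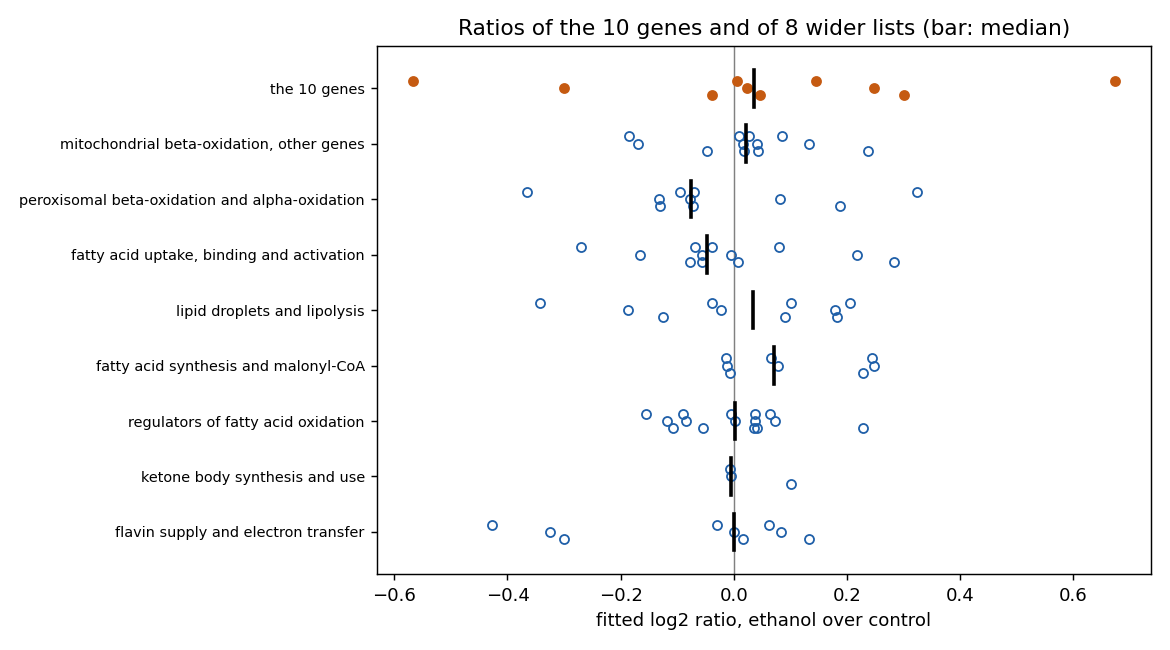
Fitted log2 ratio of ethanol over control (horizontal axis) for the 10 genes (filled) and for the measured genes of 8 wider lists (open), each on its brightest kept probe, with the median as a bar. The 10 genes run from -0.57 to 0.67 and the wider lists stay within 0.43 of 0.

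Markers of the blastocyst's cells were measured on the same arrays. All 11 trophectoderm markers had a kept probe and a median log2 ratio of -0.15, with 7 below 0 and 4 above. PPAG3 and TEAD4, of smallest p, had -0.38 and -0.29 (the latter -0.18 without array 2), and the 4 above were KRT19 at 0.18, CDX2 at 0.08, KRT18 at 0.05 and ELF5 at 0.03. Their mean pool level ran from 3.36 to 4.24 with ethanol and from 3.72 to 4.03 without. Of 9 inner cell mass markers 4 were measured, all below 0, with a median of -0.21 and ESRRB and DPPA5 at -0.26 and -0.27 (-0.14 and -0.13 without array 1), while SOX2, KLF4 and SALL4 had probes but none kept. Their mean level ran from 0.997 to 1.57 with ethanol and from 1.27 to 1.45 without.

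The 6 measured hypoblast markers had a median of 0.14, with 5 above 0 and 1 below, and HNF4A had no kept probe. COL4A1 had 0.27, but 0.15 with its probes averaged and 0.15 without array 4, and LAMC1 had 0.23, but 0.11 without array 1. Their mean level ran from 1.94 to 2.22 with ethanol and from 1.79 to 2.06 without. Of 16 cumulus and granulosa markers 14 were measured, 11 above 0 and 3 below, with a median of 0.03. Their mean level ran from 0.07 to 0.21 with ethanol and from 0.04 to 0.19 without. Mean log2 intensity of their brightest probes ran from 6.69 to 9.51, against 6.50 for the third CPT1A probe, which was not above background. TNFAIP6 and INHA were each above background in 2 ethanol and 3 control pools, and signs of such dim markers are uncertain. RGS2 had 0.53 (0.23 with its probes averaged), with -0.12 and 0.15 on arrays 1 and 3 against 1.03 and 1.06 on arrays 2 and 4. VNN1 had -0.40, with -0.97 and -0.82 against -0.10 and 0.30, so both split by dye orientation. The part of these markers in the values of the 10 genes was not tested.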

How the data were processed

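Per the file headers, the deposited scanner output gives raw intensity of spot and surroundings in each dye, with no normalization. The sources used here do not name scanner or software. The ratios in the authors' deposited table are on a log2 scale, Cy5 over Cy3: against background-subtracted, loess-normalized Cy5 over Cy3 values its columns correlated across probes at 0.985 to 0.997, with medians of -0.0138, -9.35e-05, 0.00378 and 0.00108. The authors' normalization is not given there, and the table served as an alternative. A further table with 4 unmatched columns was not used.

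Median pixel intensities were corrected with normexp (offset 50) and loess in R 4.3.3 with limma 3.58.1, with weight 0 for 1426 non-probe spots and for 53 probe spots marked as ignored, which were left out. A probe was kept when it exceeded the 95th percentile of 153 negative controls on at least 3 arrays in either treatment, which left 25899 (59.1%). Above background were 70.4% to 73.5% of probes in Cy3 and 45.3% to 57.3% in Cy5. The model had an ethanol and a dye coefficient, leaving 2 residual degrees of freedom, and p-values were Benjamini-Hochberg adjusted across the kept probes. The number of arrays limits the precision. The fit was tested on simulated data.

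Gene names are the array's. Of 9 member probes with an accession, 6 matched the Sscrofa11.1 RefSeq table under the same symbol. The brightest kept probe represents a gene. Members, lists and markers were chosen with earlier results of these data known. Named were every member probe, up to 4 genes of smallest p per list and 2 per marker set. CPT2 and PPARA were named after their values were seen. Alternatives covered the dye term, the low-intensity filter, background, normalization, variance model, separate channels, the authors' values, mean pixels, averaged probes and each array left out.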

Additional observations from a re-analysis of the deposited data

Results flagged for a closer look

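In 46 sets of 4 values (the ratio and the signal of the 23 kept probes), an array lying far from the other 3 was searched for, and 5 were found. Chance marks about 1 in 20 such sets, and ratios before the dye term can be set apart by the dye. The ACADM log2 ratio was 0.71 on array 4 and 0.07 to 0.11 on the others. The second ACADL probe had a log2 ratio of 0.81 on array 2, against 0.34 to 0.41 elsewhere. The second CPT1A probe had 0.23 on array 3, with the other arrays between -0.03 and 0.00. In signal, meaning the mean of both channels on the log2 scale minus the array's median, the third ETFA probe stood at 1.75 on array 4, against 4.52 to 4.72. The second ETFA probe reached 4.28 on array 3, while the remaining arrays gave 3.94 to 4.00.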

How the results depend on the processing

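No alternative passed any probe at an adjusted p under 0.05 in limma, and the lowest adjusted p was 0.0542, without array 3. At an unadjusted p under 0.05 the count ran from 878 without the dye coefficient to 2705 without the filter on dim probes, and with 1 array left out from 1298 to 2221. The brightest probes of ACADL, ACADVL, ACADM, ACAA2 and ETFB kept their sign in every alternative run, with ranges of 0.53 to 0.82, -0.70 to -0.44, 0.09 to 0.41, 0.22 to 0.38 and -0.38 to -0.22. CPT1A ranged from -0.08 to 0.37, and ACADS, HADHA, HADHB and ETFA crossed 0 within 0.13 of it. With balanced dyes the ratio itself is the same with or without the dye term. It is also unchanged without the filter on dim probes, with separate channels and with the other variance model. Those runs could not change a sign, so the ranges come from the other alternatives. Each ratio compares the ethanol and control pools of 1 array, so the main analysis is itself paired by array. Dim probes and 4 arrays limit the precision.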
